A study of Mus musculus with 39 samples.

Results

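Whole tibialis anterior muscle of wild-type mice was compared at 14 and 7 days after injury, the step in which newly formed fibres mature. The comparison used 6 of the 39 libraries of the series, 3 at day 14 and 3 at day 7. All genes with 10 or more counts in at least 3 of these 6 libraries were tested, 13276 of the 55011 gene symbols counted. At both days the mice were wild-type, had been given diphtheria toxin by intraperitoneal injection and had been injured in the hindlimb with cardiotoxin. This snake venom toxin destroys muscle fibres and leaves their stem cells able to rebuild them. The toxin was given to wild-type mice too because they served as controls of Tcrd-DTR mice, in which it depletes γδ T cells. The same step in those mice (3 libraries at day 14 and 2 at day 7, injured and given the toxin alike) is used here only to show where wild-type muscle differed. Day 1 and day 3 wild-type muscle, 3 libraries each and treated in the same way, is used to place each level in the time course. A pair of libraries of wild-type muscle at day 7, from mice injured with cardiotoxin and given PBS by intraperitoneal and intramuscular injection, is used for reference levels. No source used here gives the age or sex of the mice or the hour of collection. Uninjured muscle was not analysed here, so no level below can be read as fully recovered. Each library was made from 2 ng of RNA of homogenized tissue and stands for an independent biological replicate, per the labels.

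After injury, satellite cells, the stem cells of muscle, divide, become myoblasts under the transcription factors Myf5 and Myod1, and fuse into fibres under myogenin (Myog). New fibres first build embryonic and perinatal forms of myosin and troponin and replace them with adult forms as they mature and regain their nerve supply. Macrophages clear debris, fibroblasts lay down matrix, and both populations normally shrink again as the tissue settles. In a bulk sample, fewer cells of a type and less RNA per cell cannot be told apart, so every value below is a share of the RNA of the whole tissue. Values are given per library as CPM, the counts of a gene scaled to the library's total, in the order of replicates 1, 2 and 3. Fold changes are day 14 over day 7 on the log2 scale, with their standard error, from edgeR's quasi-likelihood test. A gene was called when its Benjamini-Hochberg adjusted p over all 13276 genes was under 0.05. Only such a gene is said to have risen or fallen. In each called gene whose values are given for every library, the 3 day 14 values did not overlap the 3 day 7 values. The naming rule required this only of genes taken for the largest changes or the smallest p.

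All 6 libraries carried the defining genes of skeletal muscle at high level. Skeletal alpha-actin (Acta1) had 64800, 60111 and 66371 CPM at day 14, against 84403, 75925 and 58460 CPM at day 7. Muscle creatine kinase (Ckm) had 31518, 30826 and 31754 CPM at day 14, against 18618, 20588 and 25069 CPM at day 7. Neither the keratinocyte list, whose summed level was 8.2 to 13 CPM at day 14 and 8.27 to 11.9 CPM at day 7, nor the αβ T and NK cell list stood out at either day. The T and NK cell list summed to 12.5 to 18.2 CPM at day 14 and 7.95 to 20.5 CPM at day 7.

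The libraries of the 2 days also differed in depth and in other measures of the whole library. Day 14 libraries held 3293231 to 3997486 counts and day 7 libraries 7031474 to 9309783. Olfactory and vomeronasal receptor genes, which muscle is not known to use, summed to 1507, 1558 and 1763 CPM at day 14, against 260.3, 530.2 and 1335 CPM at day 7. Day 7 replicate 3 therefore stood apart from the other 2 day 7 libraries and lay near the day 14 range. Its correlation with the day 14 libraries on the log2 CPM scale over genes was 0.916 to 0.924, where the other 2 had 0.854 to 0.893. With those 2 day 7 libraries it correlated more closely, at 0.927 and 0.947. Its share of mitochondrially encoded counts, 6.83%, lay between theirs and above those of day 14. The fold change moved with transcript length: over 10 bins of transcript length, the median log2 fold change was -0.46 for the shortest transcripts and 0.52 for the longest. With each library's trend over length and GC content taken out by an offset, these medians were -0.08 and -0.05. The part of this length trend in any result below was not tested. For the gene lists, the counts of calls with the offset, without day 7 replicate 3 and in a fit of all 23 time-course libraries are given beside the count where they moved it by over 1.5 times.

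**Figure D1:**
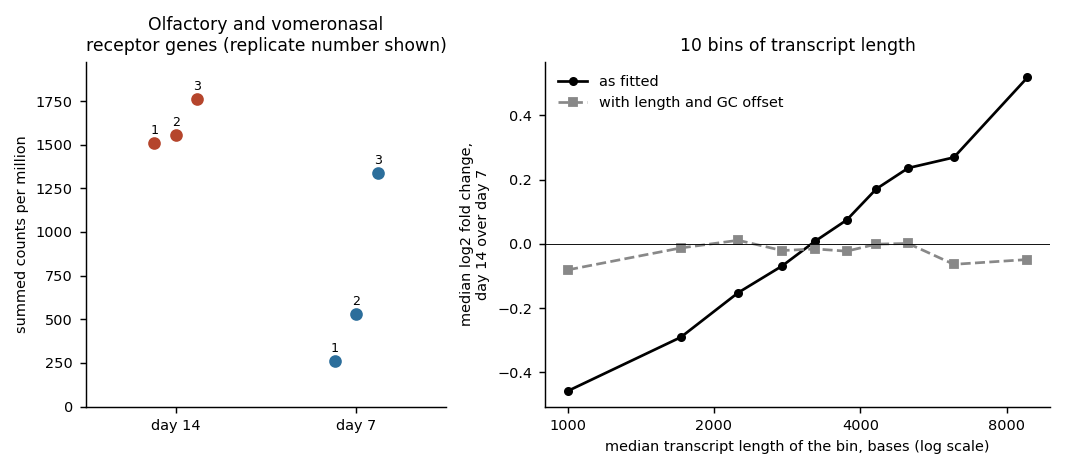
Left, summed CPM of olfactory and vomeronasal receptor genes, 1 point a library with its replicate number, wild-type day 14 and day 7. Right, median log2 fold change (day 14 over day 7) of the genes in 10 bins of transcript length, as fitted and with the length and GC offset. Day 7 replicate 3, at 1335 CPM, lies near the 3 day 14 libraries, and the medians run from -0.46 to 0.52 as fitted.

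Between day 7 and day 14, 2765 genes (20.8% of those tested) changed. Of these 1138 (8.57%) rose and 1627 (12.3%) fell, and 1324 (9.97%) changed at least 2-fold. Without the count filter the split was 643 rising and 2145 falling genes, and the median over the tested genes lay 0.22 lower on the log2 scale. The median log2 fold change of all tested genes was 0.02, the value to set beside the medians of the gene lists below. It varied with level, so it is only a rough background for lists of high or low genes. Genes over 50 CPM had a median of -0.171, with 16.5% rising and 30.6% falling. Genes of 5 to 50 CPM had -0.015, with 8.84% rising and 11.9% falling. Genes under 5 CPM had 0.285, with 3.21% rising and 1.77% falling. The 20.8% called over all tested genes is the share to set beside the list counts. Among lists with a called gene, DNA replication (7.41%), tenocytes (10%), ribosome biogenesis (12.5%), adipocytes (15.4%) and TGF-beta signalling (15.8%) lay under it. Near it lay the atrophy list (21.7%), pericytes and smooth muscle (23.1%), fibroblasts (24%), complement (25%) and chemokines (25%). With the length and GC offset 709 genes rose and 1174 fell, of which 600 and 980 were called in the same direction without it. The number of calls rested on single libraries, with 3761 calls without day 7 replicate 3 and 1651 without day 14 replicate 1, 1771 without day 14 replicate 3 and 1837 without day 7 replicate 2. Of the 1627 genes that fell, 635 had their highest mean of the 4 days at day 7, 887 at day 3 and 105 at day 1. Of the 1138 that rose, 561 had their highest mean at day 14, 315 at day 3 and 262 at day 1. Among genes not called, the highest mean lay at day 3 in 5796, day 1 in 1856, day 14 in 1608 and day 7 in 1251. Day 3 was thus the most frequent among fallen and uncalled genes alike. No gene that fell was highest at day 14 and none that rose at day 7, which largely follows from the calls themselves.

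**Figure D2:**
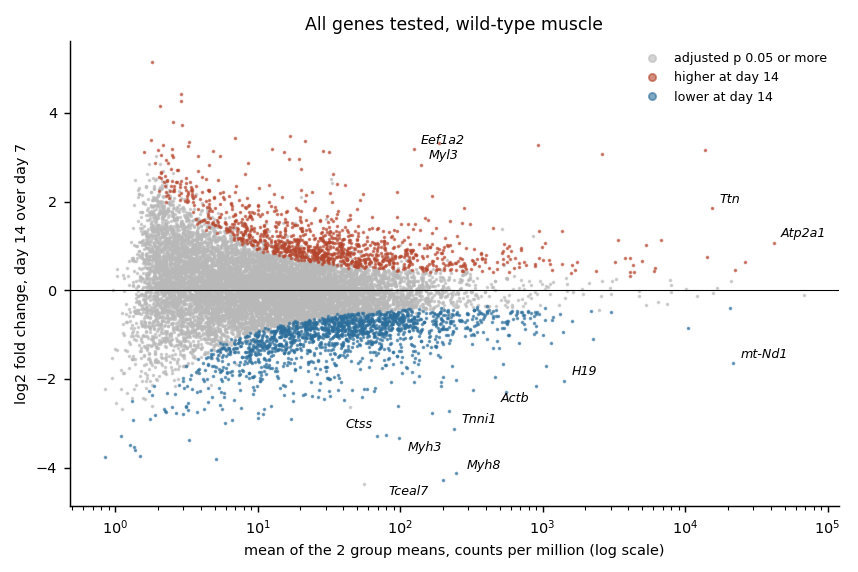
Log2 fold change, day 14 over day 7, against mean level in CPM (log scale) for all 13276 genes tested, 1 point a gene. Genes higher and lower at day 14 at an adjusted p under 0.05 are coloured, and 12 genes described in the text are named, from Tceal7 at -4.28 to Eef1a2 at 3.17.

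The 12 largest falls by the naming rule held 4 genes of the immature fibre, Tceal7, Myh8, Myh3 and Tnni1, and 5 that myeloid cells are known for, Clec7a, Clec4n, Ctss, Mpeg1 and Ccl6. The others were Mmp13, Atp6v0d2, a subunit of the vacuolar proton pump (log2 fold change -3.00, adjusted p = 0.00603), and Eid1, an inhibitor of differentiation (log2 fold change -2.88, adjusted p = 8.32e-05). Atp6v0d2 is also on the list of lipid-handling repair macrophage genes used below. Clec7a, Clec4n and Mpeg1 passed the count filter through the deeper day 7 libraries alone, so the filter bears on their place among the largest falls. Tceal7, a small nuclear protein of the TCEAL family that is expressed in regenerating mouse muscle, had 16.5, 20.98 and 18.2 CPM at day 14, against 486, 405 and 256 CPM at day 7 (log2 fold change -4.28 ± 0.25 SE, adjusted p = 1.33e-07), or -3.61 (adjusted p = 1.04e-07) with the offset. Perinatal myosin heavy chain (Myh8) had 29.5, 21.3 and 25.8 CPM at day 14, against 602, 585 and 218 CPM at day 7 (log2 fold change -4.12 ± 0.46 SE, adjusted p = 0.00138). Embryonic myosin heavy chain (Myh3) had 16.5, 17.4 and 16.7 CPM at day 14, against 231, 206 and 101 CPM at day 7 (log2 fold change -3.33 ± 0.29 SE, adjusted p = 5.83e-06). The 3 day 14 values of each of these genes lay close together and far below the lowest day 7 value, which was that of replicate 3 for each of them. Their levels in the PBS-treated wild-type mice at day 7 were 462 and 402 CPM, 1034 and 925 CPM and 582 and 352 CPM. Earlier in the course all 3 had been low, with Myh8 at 2.598 ± 1.24 CPM at day 1 and 7.001 ± 3.57 CPM at day 3 (SD, n = 3 each), so that their rise and their fall both lay inside the 2 weeks.

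Of the 13 tested members of the developmental sarcomere list, 6 fell and 1 rose, with a median of -0.44. Embryonic myosin light chain (Myl4) had 83.6, 70.03 and 81.7 CPM at day 14, against 343, 312 and 309 CPM at day 7 (log2 fold change -1.95 ± 0.14 SE, adjusted p = 4.48e-07). Cardiac troponin T (Tnnt2), which embryonic skeletal muscle also uses, had 14.3, 8.99 and 13.1 CPM at day 14, against 54.9, 50.5 and 49.3 CPM at day 7 (log2 fold change -2.00 ± 0.22 SE, adjusted p = 1.41e-05). Csrp3, a LIM protein of the Z-disc, had 49.8, 49.6 and 65.9 CPM at day 14, against 456, 427 and 273 CPM at day 7 (log2 fold change -2.73 ± 0.21 SE, adjusted p = 6.33e-07). In all 3 genes the lowest day 7 library was replicate 3 and the highest replicate 1. Ankrd1, a stress-responsive ankyrin repeat protein of the fibre, had a log2 fold change of -1.76 (adjusted p = 3.86e-05). Nrap, which takes part in myofibril assembly, rose by 0.59 (adjusted p = 0.00302) and lost that call with the offset, 0.21 (adjusted p = 0.382), and in the fit of 23 libraries, 0.55 (adjusted p = 0.172). Cardiac alpha-actin (Actc1), the actin of embryonic muscle, was not called, at 1871, 2281 and 1999.9 CPM at day 14, against 3678, 2699 and 2482 CPM at day 7 (log2 fold change -0.44, adjusted p = 0.0543). Without day 7 replicate 3 it was called, at -0.60 (adjusted p = 0.00302).

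Slow-fibre genes split. Of 14 tested members 8 fell and 2 rose (median -0.75). Slow troponin I (Tnni1), which regenerating fibres also make before they commit to a fibre type, had 33.8, 44.4 and 63.2 CPM at day 14, against 530, 446 and 324 CPM at day 7 (log2 fold change -3.12 ± 0.24 SE, adjusted p = 2.73e-06). Slow troponin C (Tnnc1) and slow troponin T (Tnnt1) fell by 1.65 and 1.18 on the log2 scale (adjusted p = 0.00014 and 0.000721). Casq2, the calsequestrin of slow and cardiac muscle, had 97.3, 102 and 78.6 CPM at day 14, against 520, 397 and 282 CPM at day 7 (log2 fold change -2.03 ± 0.21 SE, adjusted p = 1.29e-05). The Z-disc protein Myoz2 had 43.03, 45.5 and 53.4 CPM at day 14, against 161, 185 and 119.6 CPM at day 7 (log2 fold change -1.63 ± 0.19 SE, adjusted p = 2.00e-05). Tnni1, Casq2 and Myoz2 were lowest in replicate 3 among the day 7 libraries. Against this direction, the slow ventricular light chain Myl3 had 254, 314 and 167 CPM at day 14, against 30.3, 49.2 and 30.1 CPM at day 7 (log2 fold change 2.83 ± 0.24 SE, adjusted p = 3.54e-06). Myoglobin (Mb) rose by 1.06 (adjusted p = 5.59e-05). Slow myosin heavy chain (Myh7) had 22.8, 25.9 and 47.98 CPM at day 14, against 0.569, 15.7 and 7.53 CPM at day 7, with no overlap between the days but an adjusted p of 0.175.

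Of 25 fast-fibre genes 14 rose and 2 fell (median 0.50, and 10 and 1 with the offset). In the fit of 23 libraries 6 rose and none fell, and without day 7 replicate 3 14 rose and 5 fell. Mylk2, the myosin light chain kinase of skeletal muscle, had 469, 421 and 466 CPM at day 14, against 133, 163 and 220.1 CPM at day 7 (log2 fold change 1.49 ± 0.16 SE, adjusted p = 9.81e-06). The M-band protein Myom2 had 1833, 1908 and 2058 CPM at day 14, against 742, 799.6 and 909.9 CPM at day 7 (log2 fold change 1.33 ± 0.12 SE, adjusted p = 2.64e-06). In both genes replicate 3 was the highest day 7 library. Ampd1, the AMP deaminase of fast muscle, rose by 0.96 (adjusted p = 9.29e-05), and parvalbumin (Pvalb), the calcium buffer of fast fibres, by 0.66 (adjusted p = 0.00305). The largest proteins of the sarcomere carried the smallest p-values of the list. Titin (Ttn) had 24687, 22906 and 24011 CPM at day 14, against 6699.9, 6419 and 8117 CPM at day 7 (log2 fold change 1.84 ± 0.11 SE, adjusted p = 1.28e-07). Nebulin (Neb) had 9492, 9097 and 9037 CPM at day 14, against 4271, 4009 and 5085 CPM at day 7 (log2 fold change 1.14 ± 0.11 SE, adjusted p = 6.11e-06). Day 7 replicate 3 was again the library nearest to day 14. These are also the longest transcripts of the list, and with the length and GC offset their log2 fold changes were 0.22 (adjusted p = 0.437) for Ttn and -0.06 (adjusted p = 0.866) for Neb, so neither call held. The 2 genes that fell, the regulatory light chain Mylpf and fast troponin C (Tnnc2), fell by 0.40 and 0.54 on the log2 scale and were not called with the offset. Mylpf was also not called without day 14 replicate 1 or 2 or day 7 replicate 2, at -0.36, -0.38 and -0.39 (adjusted p = 0.0805, 0.0723 and 0.0575).

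Among the adult myosin heavy chains, Myh4, which makes the fastest (2B) fibres, had 17900, 15544 and 18729 CPM at day 14, against 12953, 10421 and 9699.5 CPM at day 7 (log2 fold change 0.74 ± 0.13 SE, adjusted p = 0.000881). That call was lost with the offset, 0.31 (adjusted p = 0.199), and in the fit of 23 libraries. Myh1, which makes 2X fibres, had 5204, 5609 and 6251 CPM at day 14, against 8728, 8208 and 4885 CPM at day 7 and was not called (log2 fold change -0.27, adjusted p = 0.338). Myh2, which makes 2A fibres, had 698, 612 and 459 CPM at day 14, against 511, 634 and 411 CPM at day 7 and was not called either (log2 fold change 0.27, adjusted p = 0.275). The days overlapped in Myh1 and in Myh2. Per kilobase of transcript, the 6 myosins can be compared as shares of their sum. Myh4 made up 73.4% ± 1.89 at day 14 and 57.4% ± 5.73 at day 7, and Myh1 23.8% ± 1.98 at day 14 and 36.7% ± 4.59 at day 7 (SD, n = 3 each). Myh8 made up 0.105% ± 0.0139 at day 14 and 2.28% ± 0.776 at day 7, and Myh3 0.0715% ± 0.00753 and 0.899% ± 0.208. The 3 day 14 shares of each of these 4 genes did not overlap the day 7 shares (two-sided exact permutation p = 0.1, the smallest that 3 against 3 libraries allow). The transcripts of these myosins have similar lengths, and reads shared between their near-identical coding sequences may have been placed differently than assumed.

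Among the 12 genes with the largest rises by the naming rule, Nt5c1a, a cytosolic nucleotidase of skeletal muscle, had 14.8, 18.8 and 11.2 CPM at day 14, against 1.71, 0.322 and 4.62 CPM at day 7 (log2 fold change 2.87 ± 0.58 SE, adjusted p = 0.00287; 3.98 without day 7 replicate 3). Ppara, a nuclear receptor that drives fatty acid oxidation, had 3.75, 9.81 and 10.3 CPM at day 14, against 0.142, 0.215 and 3.301 CPM at day 7 (log2 fold change 2.82 ± 0.83 SE, adjusted p = 0.0254). Its call was lost without day 14 replicate 2 or 3 or day 7 replicate 2, at 2.62, 2.58 and 2.29 (adjusted p = 0.0964, 0.103 and 0.072). Others were genes that muscle is not known to use, such as the airway secretory protein Scgb1a1, at 8.01, 3.82 and 4.86 CPM at day 14, against 0, 0 and 0.792 CPM at day 7 (log2 fold change 4.42 ± 0.95 SE, adjusted p = 0.00344; 7.96 without day 7 replicate 3). Another was the islet and neuronal phosphatase Ptprn2, at 4.75, 5.72 and 7.29 CPM at day 14, against 0, 1.07 and 0.792 CPM at day 7 (log2 fold change 3.26 ± 0.76 SE, adjusted p = 0.00579). They were near the floor at day 7 and few counts lay behind each value. Scgb1a1 passed the count filter through the day 14 libraries alone, so the filter bears on its place among the largest rises.

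**Figure D3:**
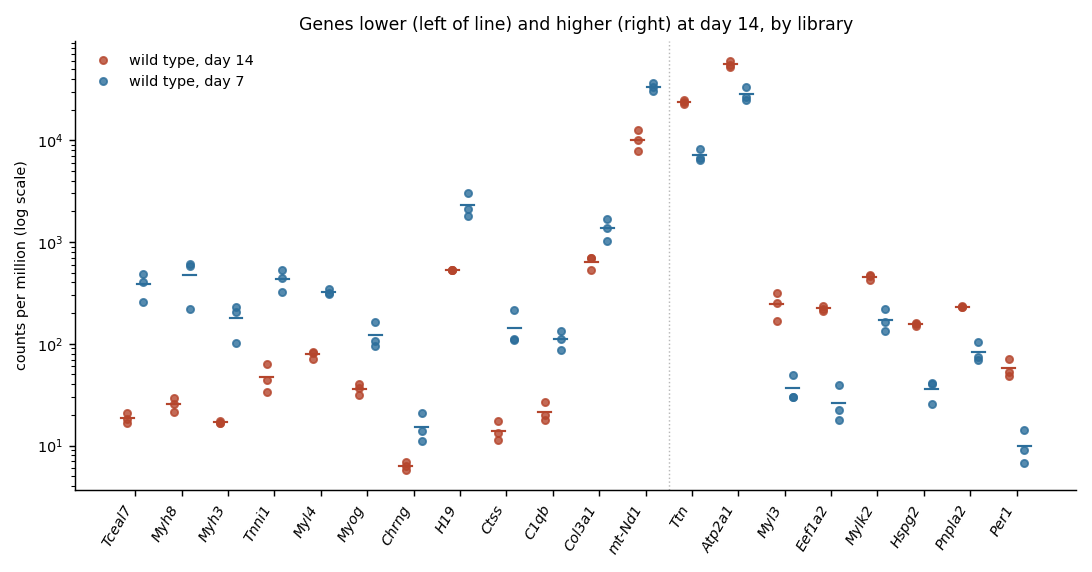
CPM (log scale) of 20 genes in each library, wild-type day 14 left and day 7 right of each gene's position, with bars at the group means. For the 12 genes left of the dotted line all day 14 values lie below all day 7 values, and for the 8 genes right of it all lie above.

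The transcription factors and fusion proteins of myogenesis were lower or not called. Of 23 tested members 7 fell and none rose (median -0.47). Over this and 22 other lists in which no gene rose, 319 genes were tested, of which 9 lay above 0 with an unadjusted p under 0.05 and none rose by DESeq2. Of the 319, 11 rose without day 7 replicate 3, 2 without day 7 replicate 1 and 1 with the offset. Myog, the factor that drives terminal differentiation, had 39.8, 37.1 and 31.3 CPM at day 14, against 164, 106 and 95.7 CPM at day 7 (log2 fold change -1.68 ± 0.22 SE, adjusted p = 6.09e-05), after a mean of 411 ± 48.1 CPM at day 3 (SD, n = 3). Myf6, the regulator kept by mature fibres, had 67.5, 70.9 and 72.3 CPM at day 14, against 228, 146 and 161 CPM at day 7 (log2 fold change -1.26 ± 0.18 SE, adjusted p = 0.00016). Myomaker (Mymk), the membrane protein that fuses myoblasts, had 15.5, 8.72 and 11.5 CPM at day 14, against 62.3, 45.8 and 40.3 CPM at day 7 (log2 fold change -1.97 ± 0.26 SE, adjusted p = 6.64e-05). The cell cycle inhibitor Cdkn1a, which marks the exit of myoblasts from the cycle, had 37.5, 43.1 and 46.5 CPM at day 14, against 186, 159 and 149.9 CPM at day 7 (log2 fold change -1.87 ± 0.17 SE, adjusted p = 2.78e-06). Myog, Mymk and Cdkn1a were highest in replicate 1 and lowest in replicate 3 among the day 7 libraries. Myf5 was near the counting limit at day 14, with 2.001, 0.818 and 0.304 CPM at day 14, against 12.2, 5.69 and 4.09 CPM at day 7 (log2 fold change -2.68 ± 0.64 SE, adjusted p = 0.0068). Its log2 fold change was -3.54 without day 14 replicate 1 and -2.07 without day 7 replicate 1. In contrast, Myod1 had 35.02, 43.9 and 47.1 CPM at day 14, against 47.8, 59.3 and 48.5 CPM at day 7 (log2 fold change -0.21 ± 0.19 SE, adjusted p = 0.454) and was not called. The stem cell factor Pax7 had 3.75, 2.45 and 0.304 CPM at day 14, against 3.56, 4.51 and 2.64 CPM at day 7 (log2 fold change -0.61 ± 0.67 SE, adjusted p = 0.556) and was not called either. The days overlapped in Pax7 and nearly touched in Myod1. Of 13 tested satellite cell markers, 4 fell and none rose, with a similar level in the 3 libraries of each day in both named here. Tnfrsf12a, the TWEAK receptor, had 16.5, 13.1 and 13.1 CPM at day 14, against 67.8, 58.4 and 62.9 CPM at day 7 (log2 fold change -2.06 ± 0.20 SE, adjusted p = 5.83e-06). The heparan sulfate proteoglycan Sdc4 had 43.5, 40.9 and 50.7 CPM at day 14, against 114, 136 and 115 CPM at day 7 (log2 fold change -1.34 ± 0.16 SE, adjusted p = 3.78e-05).

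At the neuromuscular junction the fetal acetylcholine receptor contains the gamma subunit (Chrng), which the epsilon subunit (Chrne) replaces in adult muscle. Chrng had 6.25, 6.81 and 5.77 CPM at day 14, against 21.05, 11.1 and 13.7 CPM at day 7 (log2 fold change -1.20 ± 0.34 SE, adjusted p = 0.0186). The call was lost without day 7 replicate 1, at -0.86 (adjusted p = 0.101). It was also lost without day 14 replicate 1, 2 or 3, at -1.17, -1.27 and -1.15 (adjusted p = 0.0746, 0.0516 and 0.0686), and in the fit of 23 libraries. Chrne had 23.5, 18.8 and 24.6 CPM at day 14, against 18.3, 35.9 and 23.8 CPM at day 7 and was not called (log2 fold change -0.13, adjusted p = 0.75), and its days overlapped. The alpha subunit (Chrna1), part of both forms, had 56.03, 58.04 and 49.2 CPM at day 14, against 176, 129 and 142 CPM at day 7 (log2 fold change -1.37 ± 0.17 SE, adjusted p = 4.86e-05). The beta subunit (Chrnb1) fell by 1.02 on the log2 scale (adjusted p = 0.00078). Acetylcholinesterase (Ache), which clears the transmitter, rose to 152, 130 and 128 CPM at day 14, against 69.5, 66.4 and 68.5 CPM at day 7 (log2 fold change 1.09 ± 0.15 SE, adjusted p = 8.63e-05). The sodium channel of adult muscle (Scn4a) had 169, 153 and 141 CPM at day 14, against 57.9, 67.9 and 90.6 CPM at day 7 (log2 fold change 1.19 ± 0.16 SE, adjusted p = 0.000106). In all, 4 of the 20 tested junction genes rose and 3 fell (median -0.13).

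Myogenic regulators of the Myog family bind E-boxes, the sequence CANNTG, which reads the same on both strands, and promoters of genes of this programme are shown to let the reader see where that motif lies. The 4 windows run from 250 bases before to 50 after each gene's start, from RefSeq (GRCm38.p6), 5′ to 3′ on the strand of the gene, and capitals mark CANNTG. They are those of Myog (chr1:134289754-134290053, plus strand), Myh3 (chr11:67078050-67078349, plus strand), Chrng (chr1:87205561-87205860, plus strand) and Chrne (chr11:70619145-70619444, minus strand).
Myog: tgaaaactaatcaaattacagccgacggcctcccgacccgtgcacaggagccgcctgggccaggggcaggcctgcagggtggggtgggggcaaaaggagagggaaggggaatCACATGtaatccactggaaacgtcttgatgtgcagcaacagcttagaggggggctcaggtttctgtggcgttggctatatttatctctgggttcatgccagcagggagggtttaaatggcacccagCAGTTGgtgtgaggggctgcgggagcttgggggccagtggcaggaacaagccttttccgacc
Myh3: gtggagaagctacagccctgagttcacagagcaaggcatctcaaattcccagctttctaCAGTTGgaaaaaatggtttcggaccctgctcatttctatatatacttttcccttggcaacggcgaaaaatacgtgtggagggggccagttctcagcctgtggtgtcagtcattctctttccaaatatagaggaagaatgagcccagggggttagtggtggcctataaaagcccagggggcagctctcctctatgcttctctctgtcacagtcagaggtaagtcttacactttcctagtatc
Chrng: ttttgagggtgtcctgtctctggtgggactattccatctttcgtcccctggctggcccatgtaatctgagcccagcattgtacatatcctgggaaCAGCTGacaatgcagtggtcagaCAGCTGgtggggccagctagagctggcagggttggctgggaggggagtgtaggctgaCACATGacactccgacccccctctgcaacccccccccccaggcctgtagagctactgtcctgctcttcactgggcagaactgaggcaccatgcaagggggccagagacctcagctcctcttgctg
Chrne: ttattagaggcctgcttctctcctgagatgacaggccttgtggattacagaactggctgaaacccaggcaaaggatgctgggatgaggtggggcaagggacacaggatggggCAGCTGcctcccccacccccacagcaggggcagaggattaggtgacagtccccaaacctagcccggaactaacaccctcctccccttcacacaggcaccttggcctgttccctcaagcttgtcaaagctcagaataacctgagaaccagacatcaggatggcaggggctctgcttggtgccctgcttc

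The motif occurs 2 times in the window of Myog, 1 time in that of Myh3, 3 times in that of Chrng and 1 time in that of Chrne. Of all 32851 promoter windows of this length 72.3% hold it, with a median of 1 copy, so its presence alone sets none of the 4 apart. The form CAGCTG, itself one of the CANNTG sequences, occurs 2 times in the Chrng window and 1 time in the Chrne window and is held by 16.3% of all windows. Chrng fell in the main fit and Chrne was not called, and both windows hold this form. Any link between the motif and the change was not tested.

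The calcium machinery was divided evenly, 7 of 19 genes rising and 7 falling (median -0.01), and in the fit of 23 libraries 4 rose and 3 fell. The fast sarcoplasmic calcium pump Atp2a1 had 59818, 52548 and 55058 CPM at day 14, against 26508, 25099 and 33119 CPM at day 7 (log2 fold change 1.07 ± 0.11 SE, adjusted p = 1.00e-05). The voltage sensor Cacna1s had 335, 307 and 391 CPM at day 14, against 176, 140.1 and 157 CPM at day 7 (log2 fold change 1.21 ± 0.15 SE, adjusted p = 3.99e-05). In both genes replicate 2 was the lowest day 7 library. The ryanodine receptor Ryr1 had 1309, 1264 and 1407 CPM at day 14, against 527, 564 and 579.9 CPM at day 7 (log2 fold change 1.34 ± 0.12 SE, adjusted p = 1.94e-06), a call lost with the offset at 0.18 (adjusted p = 0.55). Sarcolipin (Sln), a small peptide that slows the pump, had 86.8, 66.5 and 61.6 CPM at day 14, against 421, 274 and 258 CPM at day 7 (log2 fold change -2.07 ± 0.20 SE, adjusted p = 6.11e-06). Atp2a2, the slow and cardiac form of the pump, fell by 1.28 (adjusted p = 0.00291).

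Genes of fuel use separated by pathway. Of 25 tested genes of glycolysis and glycogen, 13 rose and 3 fell (median 0.41, and 8 and 1 with the offset). Glycogen phosphorylase (Pygm) had 4803, 4414 and 4695 CPM at day 14, against 3169, 2967 and 2747 CPM at day 7 (log2 fold change 0.73 ± 0.11 SE, adjusted p = 0.000303). The insulin-responsive glucose transporter Slc2a4 had 367, 377 and 385 CPM at day 14, against 187, 177 and 254 CPM at day 7 (log2 fold change 0.96 ± 0.14 SE, adjusted p = 0.000213). Ppp1r3c, a glycogen-targeting subunit of protein phosphatase 1, fell to 58.04, 72.2 and 75.00 CPM at day 14, against 186, 169 and 151 CPM at day 7 (log2 fold change -1.22 ± 0.17 SE, adjusted p = 9.28e-05). The gluconeogenic enzyme Fbp2 fell by 0.90 on the log2 scale, a call lost with the offset. In the fit of 23 libraries 2 genes of this list rose and 2 fell, and the calls of Pygm and Slc2a4 were lost. The list had 13 rises and 5 falls without day 7 replicate 3. Fatty acid oxidation and the citrate cycle had 15 of 37 genes rising and 3 falling (median 0.30, and 18 and 1 with the offset). In the fit of 23 libraries 7 rose and none fell, and without day 7 replicate 3 16 rose and 5 fell. Ogdh, of the 2-oxoglutarate dehydrogenase complex, had 1325, 1344 and 1184 CPM at day 14, against 712, 676 and 703 CPM at day 7 (log2 fold change 0.97 ± 0.12 SE, adjusted p = 3.78e-05). Hadha, of the mitochondrial trifunctional protein, had 449, 531 and 409.6 CPM at day 14, against 281, 270.2 and 293 CPM at day 7 (log2 fold change 0.81 ± 0.14 SE, adjusted p = 0.000556). Pnpla2, the lipase that starts the breakdown of stored triglyceride, had 231, 234 and 228 CPM at day 14, against 68.98, 74.9 and 104 CPM at day 7 (log2 fold change 1.58 ± 0.16 SE, adjusted p = 6.11e-06). Its 3 day 14 libraries lay close together, and its day 7 libraries were lower and more spread.

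In the main fit the respiratory chain moved the other way from the citrate cycle. Of 40 nuclear-encoded subunits 22 fell and 2 rose (median -0.45). With the offset 5 fell and 4 rose, and the median was -0.09, beside -0.025 for all tested genes. In the fit of 23 libraries 16 fell and none rose. Uqcrb, of complex III, had 266, 319.6 and 276 CPM at day 14, against 647, 732 and 647 CPM at day 7 (log2 fold change -1.14 ± 0.13 SE, adjusted p = 2.14e-05; -0.48 (adjusted p = 0.0326) with the offset). Cox6a1, of complex IV, had 38.02, 38.7 and 37.05 CPM at day 14, against 89.5, 107 and 74.2 CPM at day 7 (log2 fold change -1.16 ± 0.18 SE, adjusted p = 0.000279). The 2 that rose, Atp5b and Atp5a1, are the beta and alpha subunits of the ATP synthase, at 0.57 and 0.32. The call of Atp5a1 was lost without any 1 of 5 libraries, day 7 replicate 3 being the exception, at 0.27 to 0.36 (adjusted p = 0.0765 to 0.167). Of 11 tested mitochondrially encoded genes 9 fell and 1 rose (median -1.27, and 6 and 1 with the offset). mt-Nd1, of complex I, had 9956, 12581 and 7751 CPM at day 14, against 36355, 30485 and 33494 CPM at day 7 (log2 fold change -1.64 ± 0.15 SE, adjusted p = 5.83e-06; -1.01 (adjusted p = 0.000194) with the offset). mt-Nd6, which lies on the other strand of the mitochondrial genome, had 185, 209 and 148 CPM at day 14, against 759.6, 815 and 673 CPM at day 7 (log2 fold change -1.96 ± 0.15 SE, adjusted p = 6.18e-07). mt-Nd5 was the exception, at 1.03 (adjusted p = 0.000618). All mitochondrially encoded genes together took 3.11% to 4.78% of counts at day 14, against 6.63% to 7.57% at day 7, and 7.54% to 8.21% in the Tcrd-DTR libraries of day 7.

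Growth-related imprinted genes, of which many are active in embryonic and regenerating tissue, were mostly lower. Of 17 tested 10 fell and none rose (median -1.11). The long noncoding RNA H19 had 527, 528 and 532 CPM at day 14, against 2131, 3013 and 1814 CPM at day 7 (log2 fold change -2.04 ± 0.16 SE, adjusted p = 7.36e-07). The noncoding RNA Meg3 had 42.5, 44.1 and 35.5 CPM at day 14, against 329.9, 390.3 and 166 CPM at day 7 (log2 fold change -2.77 ± 0.27 SE, adjusted p = 3.24e-05; -3.81 (adjusted p = 0.00474) with the offset). Igf2r, the receptor that clears the growth factor Igf2, had 43.3, 43.1 and 51.01 CPM at day 14, against 125, 109.6 and 79.8 CPM at day 7 (log2 fold change -1.11 ± 0.19 SE, adjusted p = 0.000744; -1.76 (adjusted p = 0.000148) with the offset). The 3 day 14 values of H19 differed from one another by only a few CPM, and the day 7 values ranged widely. Igf2 itself was low, at 2.502, 4.09 and 6.07 CPM at day 14, against 3.27, 6.44 and 6.47 CPM at day 7, and not called (log2 fold change -0.27, adjusted p = 0.731). The growth factor Igf1 had 25.8, 17.2 and 16.7 CPM at day 14, against 43.5, 55.3 and 36.05 CPM at day 7 (log2 fold change -1.09 ± 0.23 SE, adjusted p = 0.00305).

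**Figure D4:**
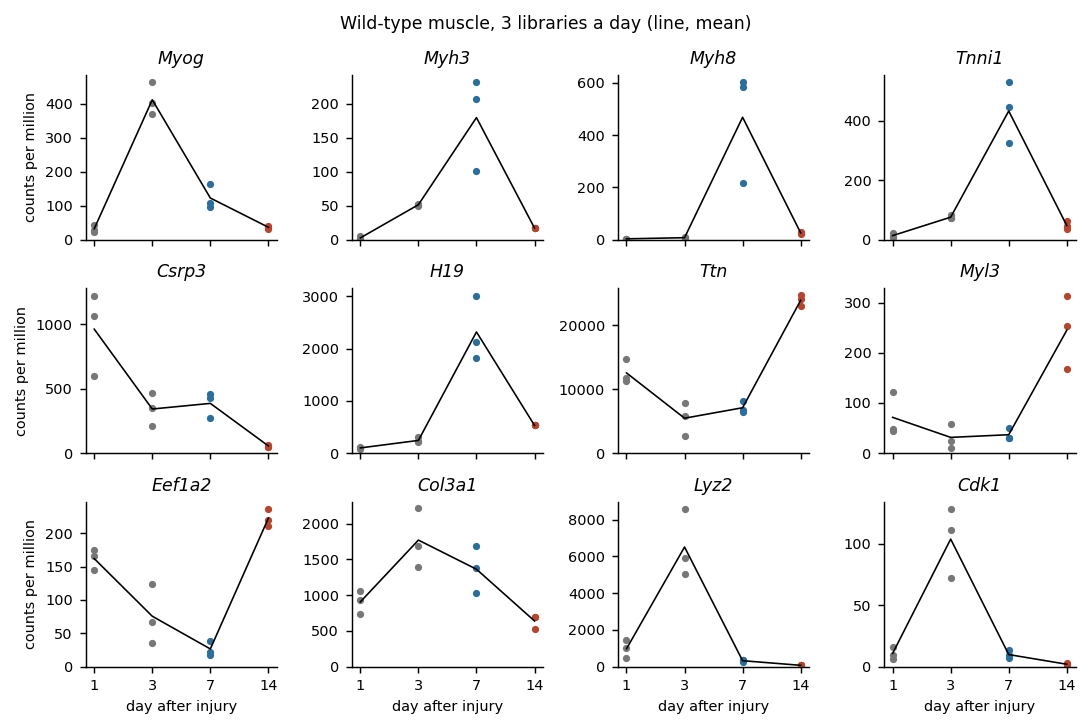
CPM of 12 genes in wild-type muscle at days 1, 3, 7 and 14, 1 point a library (3 a day) with a line through the means. Myog and Cdk1 are highest at day 3, Myh3, Myh8, Tnni1 and H19 at day 7, and Ttn, Myl3 and Eef1a2 at day 14.

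Matrix genes were lower at day 14. Of 20 collagens 10 fell and 2 rose (median -0.53), and with the offset 12 fell and none rose. In the fit of 23 libraries 7 collagens fell and 1 rose. Of 35 other matrix proteins 13 fell and none rose (median -0.48), with 8 falling in the fit of 23 libraries and 1 rising without day 7 replicate 3. The fibrillar collagen Col3a1 had 689.7, 699 and 527 CPM at day 14, against 1373, 1684 and 1031 CPM at day 7 (log2 fold change -1.01 ± 0.17 SE, adjusted p = 0.000536). Type I collagen (Col1a1) had 677, 453 and 652 CPM at day 14, against 899, 1471 and 1264 CPM at day 7 (log2 fold change -0.94 ± 0.17 SE, adjusted p = 0.000918). Col5a2 had 49.3, 61.3 and 45.5 CPM at day 14, against 167, 163 and 98.9 CPM at day 7 (log2 fold change -1.37 ± 0.21 SE, adjusted p = 0.000278). Among the day 7 libraries replicate 3 was the lowest in Col3a1 and Col5a2, and replicate 1 in Col1a1. Periostin (Postn), a matricellular protein of wound repair, had 45.8, 64.6 and 35.5 CPM at day 14, against 183, 228 and 108 CPM at day 7 (log2 fold change -1.74 ± 0.27 SE, adjusted p = 0.000721). Cthrc1, of activated fibroblasts, had 7.25, 5.72 and 3.34 CPM at day 14, against 29.9, 34.7 and 13.2 CPM at day 7 (log2 fold change -2.16 ± 0.38 SE, adjusted p = 0.000877). Day 7 replicate 2 was the highest library in both. Col15a1, of the basement membrane zone, and Col24a1 rose by 1.10 and 1.08. Neither was called with the offset or without day 14 replicate 1, at 0.85 and 1.10 (adjusted p = 0.109 and 0.0863). Col24a1 was also not called without day 14 replicate 2 or day 7 replicate 1, at 0.92 and 0.86 (adjusted p = 0.137 and 0.0856). Perlecan (Hspg2), a large proteoglycan of the basement membrane, rose to 159, 157 and 148 CPM at day 14, against 25.6, 40.1 and 41.2 CPM at day 7 (log2 fold change 2.21 ± 0.18 SE, adjusted p = 7.36e-07), or 1.15 (adjusted p = 0.000511) with the offset.

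Matrix-degrading enzymes and their inhibitors diverged by member, with 5 of 25 falling and 2 rising (median -0.53), or 6 and 4 without day 7 replicate 3. Collagenase 3 (Mmp13) had 2.75, 4.63 and 0.304 CPM at day 14, against 23.04, 19.5 and 15.1 CPM at day 7 (log2 fold change -2.79 ± 0.48 SE, adjusted p = 0.000705), or -3.50 without day 14 replicate 2. The membrane protease Mmp14 had 13.5, 14.2 and 11.5 CPM at day 14, against 29.4, 68.9 and 40.4 CPM at day 7 (log2 fold change -1.73 ± 0.28 SE, adjusted p = 0.000418). The inhibitor Timp3 had 55.3, 43.9 and 39.2 CPM at day 14, against 14.5, 15.1 and 16.5 CPM at day 7 (log2 fold change 1.67 ± 0.20 SE, adjusted p = 3.99e-05). Timp4 had 30.5, 25.3 and 32.8 CPM at day 14, against 10.8, 9.45 and 9.64 CPM at day 7 (log2 fold change 1.65 ± 0.24 SE, adjusted p = 0.00015), while Timp1 fell by 1.72 on the log2 scale (adjusted p = 0.00123). Of 25 fibroblast and fibro-adipogenic progenitor markers 6 fell and none rose (median -0.21), and 10 fell without day 7 replicate 3. Lumican (Lum), a matrix proteoglycan, had 46.5, 42.8 and 22.5 CPM at day 14, against 137, 133 and 80.8 CPM at day 7 (log2 fold change -1.57 ± 0.26 SE, adjusted p = 0.000721). The progenitor receptor Pdgfra had 20.5, 12.3 and 17.3 CPM at day 14, against 13.7, 17.2 and 17.8 CPM at day 7 and was not called (log2 fold change 0.13, adjusted p = 0.765). Of 10 tenocyte genes 1 was called, Thbs4, which fell by 0.74. Without day 7 replicate 3, 2 tenocyte genes rose and 2 fell, and in the fit of 23 libraries none was called. Its call was lost without day 14 replicate 2 or 3, at -0.55 and -0.75 (adjusted p = 0.0919 and 0.0547), and without day 7 replicate 2, at -0.70 (adjusted p = 0.0705).

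Macrophage genes were much lower at day 14. Of 14 general macrophage markers 8 fell and none rose (median -1.37). Their summed level was 163.1 to 203.9 CPM at day 14, against 523.2 to 821.7 CPM at day 7. Clec7a, the receptor for fungal beta-glucan, had 1.501, 0 and 0.304 CPM at day 14, against 9.96, 10.7 and 7.92 CPM at day 7 (log2 fold change -3.80 ± 0.64 SE, adjusted p = 0.000616), or -5.76 without day 14 replicate 1. The lectin receptor Clec4n had 1.001, 0.273 and 0.304 CPM at day 14, against 5.97, 8.06 and 4.36 CPM at day 7 (log2 fold change -3.37 ± 0.66 SE, adjusted p = 0.00173). Mpeg1, the pore-forming protein of macrophages, had 2.25, 1.64 and 0.304 CPM at day 14, against 13.5, 10.5 and 11.2 CPM at day 7 (log2 fold change -2.93 ± 0.49 SE, adjusted p = 0.000539). These 3 genes had 0 to 9 counts in each day 14 library and passed the count filter through day 7 alone. Adgre1, which encodes F4/80, had 3.002, 4.36 and 2.43 CPM at day 14, against 13.1, 20.5 and 30.9 CPM at day 7 (log2 fold change -2.61 ± 0.38 SE, adjusted p = 0.000153). Lysozyme (Lyz2) had 79.5, 63.8 and 56.8 CPM at day 14, against 231, 341 and 381 CPM at day 7 (log2 fold change -2.16 ± 0.18 SE, adjusted p = 1.08e-06). Cathepsin S (Ctss), a protease of antigen processing, had 17.5, 13.4 and 11.2 CPM at day 14, against 109.5, 111 and 213 CPM at day 7 (log2 fold change -3.26 ± 0.26 SE, adjusted p = 1.26e-06). In all 3 genes replicate 3 was the highest and replicate 1 the lowest day 7 library. Of 19 genes of lipid-handling repair macrophages 9 fell and 1 rose (median -1.22), and 2 rose without day 7 replicate 3. Apoe had 206, 160 and 168 CPM at day 14, against 729.7, 1116 and 927 CPM at day 7 (log2 fold change -2.29 ± 0.15 SE, adjusted p = 1.62e-07). Galectin 3 (Lgals3) had 25.02, 29.98 and 21.6 CPM at day 14, against 149, 109 and 246 CPM at day 7 (log2 fold change -2.62 ± 0.26 SE, adjusted p = 1.05e-05). The member that rose, Lpl, a lipase that muscle fibres also make, did so by 0.91 (adjusted p = 0.0117). The call was lost without day 14 replicate 1, at 0.87 (adjusted p = 0.0565), or day 7 replicate 2, at 0.83 (adjusted p = 0.0544). Osteopontin (Spp1), a secreted protein of these macrophages, had 6.004, 2.45 and 5.77 CPM at day 14, against 30.7, 28.4 and 262 CPM at day 7. Gpnmb, a membrane glycoprotein of the same cells, had 15.01, 8.99 and 10.6 CPM at day 14, against 30.1, 41.03 and 160.4 CPM at day 7. Day 7 replicate 3 was far above the other 2 libraries of its day in both, and neither gene was called (adjusted p = 0.0984 and 0.0722). Without that library both were called, at -2.59 for Spp1 (adjusted p = 1.69e-05) and -1.57 for Gpnmb (adjusted p = 0.00025), and in the fit of 23 libraries they had -4.38 and -2.64 (adjusted p = 0.00513 and 0.00641). Macrophage levels had been far higher at day 3, when Lyz2 averaged 6509.8 ± 1829 CPM (SD, n = 3).

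Genes of antigen presentation and innate defence were lower too. Of 7 tested MHC class II genes 6 fell (median -1.37), with H2-Ab1 at 106, 102 and 101 CPM at day 14, against 382, 437 and 254 CPM at day 7 (log2 fold change -1.72 ± 0.18 SE, adjusted p = 9.81e-06), and their transcriptional activator Ciita was not called. Of 16 complement genes 4 fell and none rose (median -0.60), with C1qb at 26.8, 17.98 and 19.7 CPM at day 14, against 86.9, 132 and 112 CPM at day 7 (log2 fold change -2.27 ± 0.20 SE, adjusted p = 2.22e-06) and its partner C1qa at 12.8, 11.2 and 19.4 CPM at day 14, against 42.5, 83.6 and 54.4 CPM at day 7 (log2 fold change -1.97 ± 0.27 SE, adjusted p = 9.03e-05). Of 28 interferon-stimulated genes 11 fell and none rose (median -0.88), and 7 fell with the offset. Among the 11 were the tetherin gene Bst2 at 13.01, 19.1 and 16.4 CPM at day 14, against 45.9, 69.3 and 34.99 CPM at day 7 (log2 fold change -1.54 ± 0.26 SE, adjusted p = 0.000626) and the receptor transporter gene Rtp4 at 3.75, 5.18 and 5.16 CPM at day 14, against 21.05, 16.2 and 12.5 CPM at day 7 (log2 fold change -1.74 ± 0.34 SE, adjusted p = 0.00185). Of 12 tested chemokines 3 fell, Ccl6, Ccl8 and Cxcl16, and without day 7 replicate 3 5 fell and 1 rose. Ccl6 had 3.002, 3.54 and 5.16 CPM at day 14, against 27.7, 44.3 and 19.8 CPM at day 7 (log2 fold change -2.89 ± 0.36 SE, adjusted p = 4.07e-05). Of 24 genes of autophagy and the lysosome 10 fell and none rose (median -0.25), and the largest fall was again that of Ctss. These 10 are 41.7% of the list, where 12.3% of all tested genes and 30.6% of those over 50 CPM fell. Only 5 of 20 genes of the IL-17 response passed the count filter, of which Mmp3 and Mmp13 fell. Other immune cells were hardly represented. Only 3 of 15 neutrophil markers, 6 of 10 dendritic cell markers, 1 of 20 αβ T and NK cell markers, 2 of 10 B cell markers and 3 of 14 γδ T cell genes passed the filter. Of these 15 genes 1 was called, Zbtb16, a transcription factor of innate-like T cells that other tissues express too, at 21.01, 13.6 and 27.6 CPM at day 14, against 5.26, 6.34 and 7.13 CPM at day 7 (log2 fold change 1.82 ± 0.31 SE, adjusted p = 0.000636). Without day 7 replicate 3, 2 of the 3 γδ T cell genes and 1 dendritic cell gene rose. With the offset 1 neutrophil and 1 dendritic cell gene fell, and in the fit of 23 libraries 1 dendritic cell gene fell. Trdc, the constant region of the δ receptor chain, had 10 counts over the 3 day 14 libraries and 11 over the 3 day 7 libraries, too few for a comparison.

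**Figure D5:**
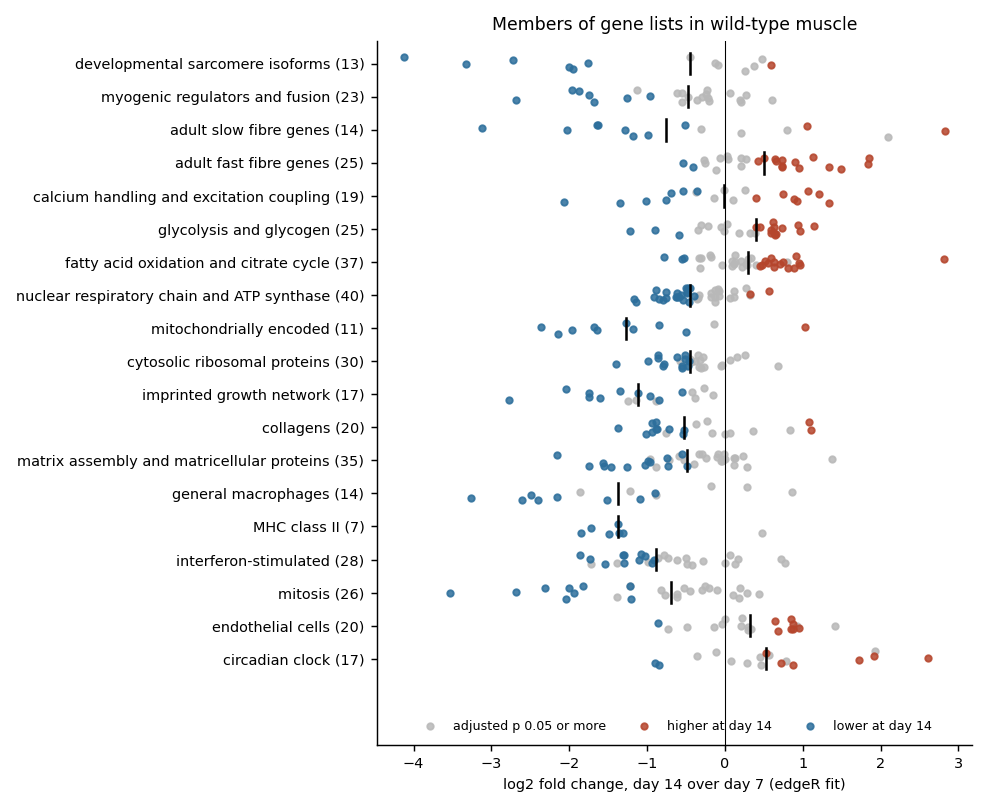
Log2 fold change, day 14 over day 7, of each tested member of 19 gene lists, 1 point a gene, with the number tested in brackets and a black bar at the median. Blue and red points are genes called at an adjusted p under 0.05. Medians run from -1.37 for the general macrophage and MHC class II lists to 0.53 for the circadian clock list, beside 0.02 for all genes.

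Genes of cell division were low at both days. Of 26 tested mitotic genes 9 fell and none rose (median -0.69). The mitotic kinase Cdk1 had 1.75, 0.818 and 3.04 CPM at day 14, against 9.39, 13.2 and 6.602 CPM at day 7 (log2 fold change -2.31 ± 0.49 SE, adjusted p = 0.00331), after 104 ± 28.8 CPM at day 3 (SD, n = 3). The survivin gene Birc5 had 2.25, 1.36 and 0.607 CPM at day 14, against 8.96, 13.6 and 6.998 CPM at day 7 (log2 fold change -2.68 ± 0.50 SE, adjusted p = 0.00126). Of 27 genes of DNA replication 2 fell (median -0.21), Pcna and Rrm2. Neither was called with the offset, and neither without day 14 replicate 3, at -1.0005 and -1.16 (adjusted p = 0.0694 and 0.0721). Nor was Pcna called without day 14 replicate 1, at -1.04 (adjusted p = 0.0698), or Rrm2 without day 7 replicate 1, at -1.11 (adjusted p = 0.0585). Of 30 cytosolic ribosomal proteins 13 fell and none rose (median -0.45), and with the offset 6 fell and 1 rose. The counts were 12 and 1 without day 7 replicate 3. The 13 falls are 43.3% of the list, where 12.3% of all tested genes and 30.6% of those over 50 CPM fell. Rpl3, a protein of the large subunit, had 54.5, 48.2 and 37.3 CPM at day 14, against 141, 153 and 99.03 CPM at day 7 (log2 fold change -1.40 ± 0.19 SE, adjusted p = 0.000112). Eef1a2, the form of elongation factor 1 alpha that replaces Eef1a1 in mature muscle and neurons, had 237, 220.2 and 212 CPM at day 14, against 17.8, 22.4 and 39.1 CPM at day 7 (log2 fold change 3.17 ± 0.22 SE, adjusted p = 3.10e-07). The day 14 libraries of Eef1a2 were close to one another, and replicate 3 was the highest day 7 library. Eef1a1 had 389, 340.1 and 304 CPM at day 14, against 494, 592 and 565 CPM at day 7 (log2 fold change -0.59 ± 0.13 SE, adjusted p = 0.0037), a call lost with the offset at -0.27 (adjusted p = 0.209). Of 24 genes of ribosome biogenesis 2 fell and 1 rose (median 0.11), none of them called with the offset, where 1 other gene fell. Of 22 heat shock and stress genes 6 fell and 1 rose (median -0.47). With the offset 3 fell and 1 rose, without day 7 replicate 3 8 fell and none rose, and in the fit of 23 libraries 7 fell and none rose. The small heat shock protein Hspb1 had 90.1, 101 and 108 CPM at day 14, against 240.3, 263 and 275 CPM at day 7 (log2 fold change -1.29 ± 0.14 SE, adjusted p = 1.30e-05). Cytoplasmic beta-actin (Actb), which mature fibres replace with the skeletal form, had 294, 351 and 298 CPM at day 14, against 1439.8, 1874 and 1170.4 CPM at day 7 (log2 fold change -2.16 ± 0.16 SE, adjusted p = 6.18e-07).

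Fewer vessel genes were called with the offset for length and GC content than without it. Of 20 endothelial genes 7 rose and 1 fell (median 0.32), and with the offset 1 rose and none fell. The counts were 6 and 3 without day 7 replicate 3. The gene that rose in both was the water channel Aqp1, at 179, 137 and 132 CPM at day 14, against 95.4, 91.2 and 76.98 CPM at day 7 (log2 fold change 0.85 ± 0.16 SE, adjusted p = 0.00138). The junction protein Cdh5 had 30.5, 33.5 and 21.6 CPM at day 14, against 23.6, 34.5 and 20.5 CPM at day 7 and was not called (log2 fold change 0.21, adjusted p = 0.576). Of 13 pericyte and smooth muscle genes 3 rose (median 0.09), and none with the offset, and 1 fell without day 7 replicate 3. Of 15 Notch pathway genes the receptors Notch1, Notch3 and Notch4 rose and Notch2 and the ligand Jag1 fell. With the offset the 2 falls held and the 3 rises did not. Without day 14 replicate 2, Notch3 and Notch4 had 0.80 and 1.19 (adjusted p = 0.128 and 0.073). The call of Notch3 held only without day 7 replicate 3, and was lost at 0.75 to 1.01 without each of the other libraries (adjusted p = 0.0512 to 0.128). Jag1 had 9.01, 5.45 and 5.77 CPM at day 14, against 18.8, 20.9 and 15.6 CPM at day 7 (log2 fold change -1.36 ± 0.30 SE, adjusted p = 0.00425). Of 19 genes of TGF-beta, BMP and activin signalling 2 rose, Tgfbr2 and Smad3, and neither was called with the offset. Tgfbr2 was also not called without day 14 replicate 1 or 2 or day 7 replicate 2, at 0.60 to 0.65 (adjusted p = 0.055 to 0.0834). Id2, a target that restrains differentiation, fell to 5.003, 4.63 and 3.34 CPM at day 14, against 11.4, 13.5 and 14.3 CPM at day 7 (log2 fold change -1.49 ± 0.34 SE, adjusted p = 0.00477). In this list 3 genes fell with the offset and 3 without day 7 replicate 3, and 1 rose in the fit of 23 libraries. Of 13 adipocyte genes Pnpla2 and Plin4 rose, the second not without day 14 replicate 1 (0.61, adjusted p = 0.106), and 4 rose without day 7 replicate 3. The adipocyte hormone adiponectin (Adipoq) had 7.505, 1.36 and 6.98 CPM at day 14, against 6.400, 19.8 and 10.6 CPM at day 7 and was not called (log2 fold change -1.13, adjusted p = 0.126). No gene was called among the 9 Schwann cell, 6 erythrocyte or 3 keratinocyte genes tested, of which Pmp22, Egr2 and Alas2 had an unadjusted p under 0.05 and none was called by DESeq2. Without day 7 replicate 3, 1 Schwann cell gene, 3 erythrocyte genes and 1 keratinocyte gene rose, among them Alas2, the first enzyme of haem synthesis in red cells, at 2.33 (adjusted p = 0.00808).

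Clock genes changed in both directions. Of 17 tested 6 rose and 2 fell (median 0.53). With the offset 4 rose, and without day 7 replicate 3 9 rose. Per1 had 53.3, 48.5 and 71.1 CPM at day 14, against 6.68, 14.1 and 9.11 CPM at day 7 (log2 fold change 2.61 ± 0.26 SE, adjusted p = 5.97e-06). Its paralogue Per2 had 19.01, 14.4 and 15.5 CPM at day 14, against 4.12, 5.37 and 6.21 CPM at day 7 (log2 fold change 1.73 ± 0.31 SE, adjusted p = 0.000857). Ciart, a repressor of the clock, had 14.8, 11.2 and 10.3 CPM at day 14, against 5.83, 2.26 and 2.11 CPM at day 7 (log2 fold change 1.91 ± 0.43 SE, adjusted p = 0.00478), or 2.56 without day 7 replicate 1. Among the day 7 libraries Per1 and Per2 were lowest in replicate 1, and Ciart in replicate 3. Clock itself fell by 0.90 on the log2 scale. That call was lost without day 14 replicate 1, day 14 replicate 3 or day 7 replicate 2 (-0.91, -0.79 and -0.89, adjusted p = 0.0633, 0.0827 and 0.0561). Its partner Arntl had 9.76, 6.54 and 6.68 CPM at day 14, against 8.11, 10.8 and 12.5 CPM at day 7 and was not called (log2 fold change -0.36, adjusted p = 0.472). These genes oscillate over the day, and the part of the hour of collection was not tested. Of 23 genes of atrophy, growth and the glucocorticoid response, where Per1 is also listed, 2 rose and 3 fell (median -0.20). With the offset 6 fell, and 5 fell without day 7 replicate 3 and in the fit of 23 libraries. The glucocorticoid-responsive factor Klf15 had 25.02, 17.98 and 19.4 CPM at day 14, against 4.12, 6.44 and 12.3 CPM at day 7 (log2 fold change 1.55 ± 0.34 SE, adjusted p = 0.00381). The atrophy ligases Trim63 and Fbxo32 were not called, at -0.20 (adjusted p = 0.456) and 0.00 (adjusted p = 0.998).

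The same step in Tcrd-DTR muscle went largely the same way. There 4613 of the 13276 genes tested (34.7%) changed, 2159 rising and 2454 falling. Of the 1138 genes that rose in wild-type muscle, 735 also rose in Tcrd-DTR muscle, which is 64.6% of the wild-type list and 34.0% of the Tcrd-DTR list of 2159. Of the 1627 that fell, 1251 also fell, which is 76.9% and 51.0% of the 2 lists. Only 2 and 6 genes were called in opposite directions, and the sign was shared by 96.1% of the rising and 96.3% of the falling wild-type genes. The share of all tested genes with the same sign was not computed. Library measures also differed between the days alike in both genotypes. Olfactory and vomeronasal receptor genes had 1383 to 1906 CPM at day 14 and 144 and 90.2 CPM at day 7 in Tcrd-DTR muscle, and depth was lower at day 14. Their part in the shared direction was not tested. Tceal7, Myh8 and Myh3 changed there by -4.19 (adjusted p = 1.53e-11), -4.64 (adjusted p = 0.00456) and -3.15 (adjusted p = 2.38e-07), beside -4.28, -4.12 and -3.33 in wild-type muscle.

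The difference between the 2 steps was tested with the interaction of genotype and day, which called 99 genes (0.746% of those tested), 88 with the wild-type step below the Tcrd-DTR step and 11 above it. An unadjusted p under 0.05 was reached by 1772 genes. The count ranged from 30 to 211 when 1 library was left out, and was lowest without Tcrd-DTR day 7 replicate 2 and highest without wild-type day 7 replicate 1. It was 43, 36 and 51 without wild-type day 14 replicate 1, 2 or 3, 47 and 50 without Tcrd-DTR day 14 replicate 2 or 3, and 155 without Tcrd-DTR day 7 replicate 1. Klhl31, a kelch protein of the fibre, had 1598, 1640.5 and 1431 CPM at day 14 and 1965, 1355 and 1784 CPM at day 7 in wild-type muscle. In Tcrd-DTR muscle Klhl31 had 1529.7, 1588 and 1434 CPM at day 14 and 539 and 446 CPM at day 7 (difference -1.55 ± 0.23 SE, adjusted p = 0.00131). Junb, an AP-1 transcription factor, had 12.8, 16.1 and 19.7 CPM at day 14 and 21.8, 30.9 and 40.8 CPM at day 7 in wild-type muscle. In Tcrd-DTR muscle Junb had 41.3, 30.8 and 42.8 CPM at day 14 and 12.04 and 8.201 CPM at day 7 (difference -2.66 ± 0.40 SE, adjusted p = 0.00131). In both genes the wild-type day 7 values lay above the Tcrd-DTR day 7 values. The PBS-treated wild-type mice of day 7 had 391 and 712 CPM of Klhl31 and 7.03 and 11.01 CPM of Junb, which lay nearer to the Tcrd-DTR than to the wild-type libraries of that day. Olfactory and vomeronasal receptor genes, at 144 and 90.2 CPM in Tcrd-DTR day 7 libraries and 260.3 to 1335 CPM in wild-type ones, differed in the same direction. Their part in the interaction was not tested.

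Slc39a1, a zinc importer, had 83.8, 112 and 84.4 CPM at day 14 and 227, 315 and 279 CPM at day 7 in wild-type muscle. In Tcrd-DTR muscle Slc39a1 had 108, 103 and 131 CPM at day 14 and 85.5 and 102 CPM at day 7 (difference -1.65 ± 0.25 SE, adjusted p = 0.00131). Atp1b2, a beta subunit of the sodium pump, had 294, 256 and 305 CPM at day 14 and 411, 391 and 411 CPM at day 7 in wild-type muscle. In Tcrd-DTR muscle Atp1b2 had 247, 265 and 319 CPM at day 14 and 128 and 119 CPM at day 7 (difference -1.47 ± 0.22 SE, adjusted p = 0.00131). Cdkn1a fell in wild-type muscle as given above and had 130.4, 84.3 and 149 CPM at day 14 and 105 and 199 CPM at day 7 in Tcrd-DTR muscle, where it was not called (difference -1.47 ± 0.31 SE, adjusted p = 0.026). Tnfrsf12a had 79.7, 42.6 and 75.4 CPM at day 14 and 76.1 and 57.4 CPM at day 7 there (difference -1.93 ± 0.33 SE, adjusted p = 0.00473). For Myog, with 118, 65.8 and 111 CPM at day 14 and 94.5 and 138 CPM at day 7 in Tcrd-DTR muscle, the difference (-1.35 ± 0.35 SE, adjusted p = 0.0749) did not pass the threshold. Mylk2 and Atp2a1 rose in both genotypes. Their wild-type step was the smaller, with a difference of -1.98 ± 0.33 SE, adjusted p = 0.00766, for Mylk2 and of -1.30 ± 0.20 SE, adjusted p = 0.00151, for Atp2a1.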

How the data were processed

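RNA of whole muscle was sequenced, and the authors deposited raw counts per gene symbol, 55011 symbols by 39 libraries, which is the file used here. The submitters' processing notes name STAR 2.7.3a, featureCounts, Subread 2.0.0 and mm10, with no role or order. No source used here gives the library kit, annotation, strand setting or treatment of duplicate reads, so genes that overlap, have antisense partners or share near-identical sequence are uncertain. Depth was 3293231 to 9309783 counts over the 6 libraries. No molecular identifiers are described, so precision covers counting error and the spread of 3 libraries a day. Replicates of 1 group differed by more than sampling noise. The chi-square per degree of freedom was 3.88 to 5.33 between day 14 libraries and 13.2 to 24.0 between the deeper day 7 libraries.

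Counts of the 6 libraries were tested with edgeR 4.0.16 (R 4.3.3; robust quasi-likelihood, TMM scaling, 10 or more counts in 3 of 6 libraries, Benjamini-Hochberg adjusted p under 0.05), after the fit had been tested on simulated data. The standard error is the log2 fold change over the root of F. The interaction was fitted on the 11 wild-type and Tcrd-DTR libraries of both days and the Tcrd-DTR step on its own 5. Library measures and shares were compared by exact permutation. Alternatives were DESeq2 1.42.0 and its size factors, library size alone, no filter, filterByExpr (minimum count 10, total 15), 23 libraries in 1 fit, a replicate block and leaving out each library. A length and GC offset (mgcv 1.9.3), thinning to 3293231 counts and list counts under some of these were added after seeing the data. Lengths and GC content came from GENCODE M21 for 98.7% of the tested genes.

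The members and the 45 gene lists (921 entries, 920 found) were chosen with earlier results of these data known. Named genes were drawn from the 12 largest changes each way and the 10 smallest p among called genes with no overlap and a group mean of at least 5 CPM, up to 4 called genes a list by p, 15 genes named in every case and the 5 smallest interaction p, 178 genes in all, of which 1 is not reported here. A further 50 genes were chosen after their values were seen: Acta1, Actc1, Adipoq, Aldh1a1, Ampd1, Ankrd1, Arntl, Atp2a2, Atp5a1, Atp5b, Cdh5, Cfl2, Ciita, Ckm, Clcn1, Clock, Col15a1, Col24a1, Crat, Eef1a1, Fbp2, Fbxo32, Fhl3, Gpnmb, H3f3b, Klhl33, Krt18, Ky, Lgals1, Lpl, Malat1, Mb, Mbnl1, Mfn2, mt-Nd5, Mylpf, Nrap, Pdgfra, Pvalb, Scn4b, Smpx, Spp1, Sun2, Timp1, Tmsb10, Tnnc1, Tnnc2, Tnnt1, Trim63 and Tuba4a.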

Additional observations from a re-analysis of the deposited data

Results flagged for a closer look

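For 14 of the genes reported here the step differed between wild-type and Tcrd-DTR muscle at an adjusted p under 0.05 by the interaction test of edgeR. In all 14 the wild-type step lay below the Tcrd-DTR step, as it did in 88 of all 99 genes called by that test. Klhl31, Junb, Slc39a1 and Atp1b2 had been named for their small interaction p, so the shared direction of the 14 is no separate result. The differences, wild-type minus Tcrd-DTR on the log2 scale, were -1.55 for Klhl31, -2.66 for Junb, -1.65 for Slc39a1, -1.47 for Atp1b2, -2.00 for Trim63, -1.30 for Atp2a1, -1.93 for Tnfrsf12a, -1.98 for Mylk2, -1.24 for Pdk2, -1.13 for Hspb7, -1.26 for Bhlhe41, -1.47 for Cdkn1a, -1.08 for Sdc4 and -2.22 for Zbtb16. The muscle ubiquitin ligase Trim63 had 93.3, 80.9 and 77.1 CPM at day 14 and 84.6, 88.1 and 136 CPM at day 7 in wild-type muscle, and 155, 126 and 140.2 CPM at day 14 and 44.8 and 28.98 CPM at day 7 in Tcrd-DTR muscle. Its day 7 level in PBS-treated wild-type mice was 34.3 and 48.3 CPM. Pdk2, which restrains pyruvate oxidation, had 768, 788 and 727 CPM at day 14 and 381, 384 and 548 CPM at day 7 in wild-type muscle, and 751, 860 and 755 CPM and 189.6 and 140.5 CPM in Tcrd-DTR muscle. Mylk2 had 391, 494 and 392 CPM at day 14 and 45.6 and 24.5 CPM at day 7 in Tcrd-DTR muscle, beside 23.5 and 60.6 CPM in the PBS-treated wild-type mice of day 7. Only 2 Tcrd-DTR libraries stand at day 7, and the number of genes called depended on them, with 30 without replicate 2 and 155 without replicate 1.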

How the results depend on the processing

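The count of 2765 called genes was 2731 with DESeq2 size factors, 2870 with library size alone, 2788 without the filter, 2801 with filterByExpr, 2829 with DESeq2 and 2820 in the fit of 23 libraries. It was 1883 with the length and GC offset, 2714 at 1 depth, and 1651 to 3761 when 1 library was left out. The count with a fold of 2 or more was 954 to 2156 when 1 library was left out, with 2156 without day 7 replicate 3. The interaction count of 99 was 316 with library size alone, 154 without the filter, 253 with DESeq2, 95 in the fit of 23 libraries and 30 to 211 when 1 library was left out, and the cause was not tested. The Tcrd-DTR step gave 3484 to 4216 genes when 1 library was left out, beside 4613. Deviations of same-numbered libraries of the 2 days had correlations of -0.04, -0.01 and 0.09, beside -0.117 to 0.121 for other pairs. These gave no sign that the numbers pair the samples, but 3 libraries a day cannot exclude it. The fit with the replicate block gave 2886 genes, 1288 rising and 1598 falling, and 4596 in the Tcrd-DTR step. With the block 3 of the 319 genes of lists without a rise were called as rising, Alas2 among them at 1.71 (adjusted p = 0.0404). Of 195 named genes that were called, 140 were called under every setting. The offset ended 33 calls and turned 1 gene in sign, Neb, at -0.064 (adjusted p = 0.866), and leaving out day 14 replicate 1, 2 or 3 ended 20, 17 and 17. The offset removes any true link between length and change along with a technical one. Depth was lowest at day 14, which limits what can be seen of genes that are low then.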

Other observations

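Some genes outside the lists were chosen after their values were seen, so the size of their changes follows from that choice. The muscle chloride channel Clcn1 had 157, 124 and 159.7 CPM at day 14, against 55.6, 44.4 and 66.9 CPM at day 7 (log2 fold change 1.49 ± 0.17 SE, adjusted p = 2.57e-05). Scn4b, a beta subunit of sodium channels, had 236, 278 and 288 CPM at day 14, against 51.2, 49.9 and 97.2 CPM at day 7 (log2 fold change 2.12 ± 0.22 SE, adjusted p = 1.30e-05). Also higher were the muscle protein Ky, whose loss causes kyphoscoliosis in mice, at 163, 171 and 162 CPM at day 14, against 55.9, 67.8 and 63.2 CPM at day 7 (log2 fold change 1.498 ± 0.15 SE, adjusted p = 5.61e-06), the kelch protein Klhl33 (log2 fold change 1.49, adjusted p = 1.92e-05) and the LIM protein Fhl3 (log2 fold change 2.38, adjusted p = 6.26e-05). Crat, which exchanges acetyl groups with carnitine in mitochondria, had 627, 667 and 633 CPM at day 14, against 219, 237 and 319 CPM at day 7 (log2 fold change 1.41 ± 0.14 SE, adjusted p = 6.71e-06). The mitochondrial fusion protein Mfn2 had 707, 721 and 697 CPM at day 14, against 355, 322 and 427 CPM at day 7 (log2 fold change 1.03 ± 0.13 SE, adjusted p = 5.13e-05). Sun2, which anchors nuclei to the cytoskeleton, rose by 2.396 (adjusted p = 7.06e-06), and Mbnl1, a splicing factor of muscle maturation, by 1.397 (adjusted p = 1.37e-05). The retinal dehydrogenase Aldh1a1 rose by 1.64 (adjusted p = 1.22e-05).

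Others among them were lower at day 14, Tuba4a excepted. Galectin 1 (Lgals1), a lectin that myoblasts and other cells secrete, had 265, 218 and 247 CPM at day 14, against 903, 881 and 665 CPM at day 7 (log2 fold change -1.66 ± 0.15 SE, adjusted p = 2.64e-06). Thymosin beta 10 (Tmsb10), which binds actin monomers, had 13.5, 11.2 and 10.6 CPM at day 14, against 72.1, 81.7 and 54.1 CPM at day 7 (log2 fold change -2.47 ± 0.22 SE, adjusted p = 2.73e-06). The simple keratin Krt18 had 13.5, 24.3 and 21.3 CPM at day 14, against 103, 104 and 85.2 CPM at day 7 (log2 fold change -2.22 ± 0.22 SE, adjusted p = 6.11e-06). The actin-severing protein Cfl2 fell by 1.19 and the small muscle protein Smpx by 1.30 on the log2 scale (adjusted p = 2.27e-05 and 5.97e-06). H3f3b, which encodes histone H3.3, had 53.5, 55.6 and 53.4 CPM at day 14, against 262, 225 and 171 CPM at day 7 (log2 fold change -1.94 ± 0.18 SE, adjusted p = 3.20e-06), whereas the tubulin Tuba4a rose to 350, 414 and 417 CPM at day 14, against 109.5, 142 and 192 CPM at day 7 (log2 fold change 1.51 ± 0.17 SE, adjusted p = 1.74e-05). The nuclear RNA Malat1 had 441, 509 and 459 CPM at day 14, against 1694, 1871 and 1331 CPM at day 7 (log2 fold change -1.71 ± 0.14 SE, adjusted p = 1.50e-06). All 18 of these genes kept their calls and directions under every alternative tried, but they had been chosen with their values known.

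A group of predicted genes that resemble one another, Gm10800 among them, took 3.01%, 3.50% and 3.00% of all counts at day 14, against 0.253%, 0.271% and 0.622% at day 7, and 2.16% to 2.67% in Tcrd-DTR muscle at day 14, against 0.0757% and 0.0987% at day 7. Reads of such copies may have been split between them in counting.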
